A study of Mus musculus with 27 samples.

Results

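The 32 genes described here encode receptors, ligands, transcription factors, junction proteins and secreted proteins that mark the endothelium of vessels and the endocardium, the inner lining of the heart. They were chosen by name, as genes of heart cells in which a heart muscle Cre should leave *Kmt2d* in place, out of 22380 protein-coding genes in the GENCODE vM1 annotation. *Kmt2d* encodes a methyltransferase of histone H3 lysine 4 (H3K4). H3K4me1 is known from enhancers, H3K4me3 from promoters, and H3K4me2 from both.

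Whole hearts of C57BL/6 background were collected at embryonic day E11.5. Mutants carried *Tnnt2::Cre*, *Kmt2d* fl/fl and 1 copy of the mTmG reporter (mTmG/+), and controls carried *Tnnt2::Cre*, *Kmt2d* fl/+ and mTmG/+, so the controls also had the Cre and 1 floxed copy of *Kmt2d*. The *Tnnt2* promoter drives Cre in heart muscle cells. Each library came from a pool of 30 hearts, with 3 pools per genotype for each of 3 marks (H3K4me1, H3K4me2 and H3K4me3) and for input DNA, 24 heart libraries in all. The values are positions on the mouse genome, build mm9: 358833 merged regions with any of the 3 marks, 2730 regions in which H3K4me1 was lower in mutant than in control hearts at the authors' false discovery rate, and 6699 in which H3K4me2 was lower. Every decreased region was identical to a merged region, and 172 were in both decreased lists. The deposited H3K4me2 list differs in length from the list the study describes, so its exact threshold is uncertain. The lists carry no read counts, fold changes or values per pool. The sequencing depth, the spread between pools and the size of a decrease are therefore unknown here, no test between genotypes could be made, and a region outside a decreased list is not shown to be unchanged. The 95% Wilson intervals below cover counting error only.

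Endothelial cells line all vessels and sense vascular endothelial growth factor (VEGF), angiopoietins and blood flow through surface receptors. In the embryonic heart the endocardium is a specialised endothelium that signals to the muscle beside it and supplies the cells of the valve cushions. Transcription factors of the ETS, SOX, GATA and KLF families are known to act together at endothelial genes, and ETS factors recognise a core that many such genes hold.

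All 32 genes had at least 1 merged region in the gene body or within 5 kb of a transcription start site (TSS), the window used throughout. There were 442 such regions, none shared between the 32 genes, covering 773800 bp. A gene had a median of 6.5 regions (range 1 to 53) with a median summed width of 14730 bp, against medians of 5 regions and 6520 bp over the 20025 coding genes with a region. The median gene length was not higher (17100.5 bp against 18272 bp). The length quartiles were higher, at 10108.5 and 92442.25 bp against 6208 and 47366 bp. *Flt1*, a VEGF receptor, and *Erg*, an ETS transcription factor, held the most regions (53 each), and the ligand gene *Apln* the fewest (1 region of 1680 bp). Of the 442 regions, 39.8% were under 500 bp wide, against 59.1% of all merged regions.

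A merged region lay over a TSS in 31 of 32 genes (96.9%), compared with 15752 of 22380 coding genes (70.4%). The exception was *Robo4*, a receptor that stabilises vessels, which had 4 regions and 2540 bp in all, with none over its 4 annotated TSS. Counting every annotated TSS, 82 of 111 in these genes (73.9%) lay in a region, against 46462 of 70064 (66.3%) for coding genes. The merged list does not say which of the 3 marks a region carried, nor in which cells of the heart.

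The regions over the TSS were wide. Their median width was 5720 bp (quartiles 3930 and 8630 bp, n = 31 genes), and that of coding genes 3720 bp (quartiles 2400 and 5840 bp). In 24 of 31 genes the region was wider than the coding median, in 19 it was at least 5 kb, and in 7 at least 10 kb. Width was also linked to the calls over all coding genes: the median was 4780 bp for genes whose TSS lay in an H3K4me2-decreased region and 3320 bp for the rest. The number of decreased regions at these 32 genes is therefore given below both beside all coding genes and beside coding genes of like width.

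**Figure D1:**
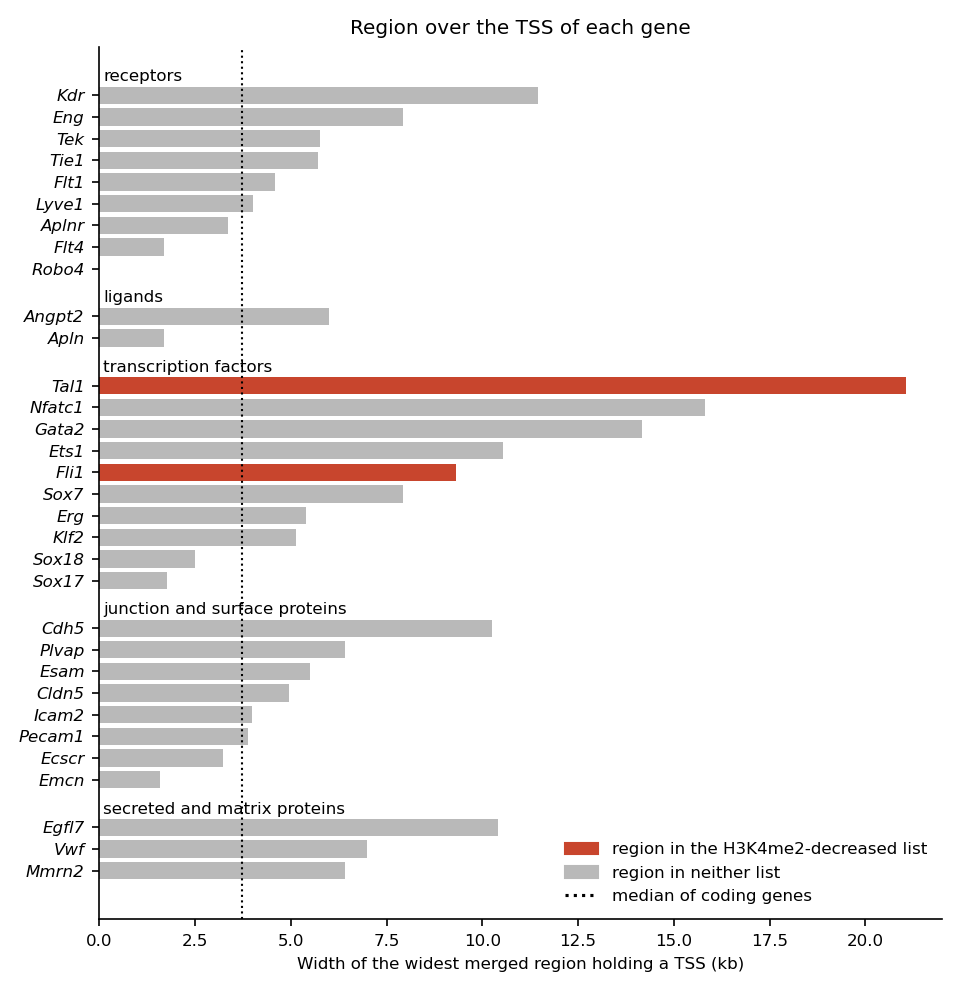
Width in kb of the widest merged region that holds a TSS of each gene, grouped by role, with 1 bar per gene and a dotted line at the median of coding genes (3720 bp). *Tal1* (21060 bp) and *Fli1* (9320 bp) are the 2 genes whose region is in the H3K4me2-decreased list, while the other bars, including the 15820 bp of *Nfatc1*, are in neither list, and *Robo4* has no bar.

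The share of these genes called for H3K4me2 was below that of coding genes. Its interval included the coding share for the window, but not over the TSS. A region in the H3K4me2-decreased list lay in the window of 5 of 32 genes (15.6%, interval 6.86 to 31.8%), where the share over coding genes with a region was 28.7%. Coding genes of the same summed region width, by decile, would give 13.0 of 32 genes (40.7%). Over the TSS the contrast was wider: 2 of 31 genes (6.45%, interval 1.79 to 20.7%) had a TSS in an H3K4me2-decreased region, where the coding share was 29.2%, and coding genes with TSS regions of the same width would give 11.1 (35.7%). The hearts were analysed whole, so fewer cells of a type and less of a mark per cell cannot be told apart.

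H3K4me1 was decreased at 1 of 32 genes (3.12%, interval 0.554 to 15.7%), where the coding share was 7.08%, and 4.75 genes would be had at the same summed width. No gene of the 31 had its TSS in an H3K4me1-decreased region (0 of 31, which allows a share of up to 9.68%). That share was 1.29% over coding genes, and 0.641 genes would be had at the same width, so a lower share was not detectable with 31 genes. Either mark was decreased at 6 of 32 genes (18.8%), while 32.9% of coding genes had a decreased region of either mark. The remaining 26 genes had none.

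Counted by region, 1 of 442 was in the H3K4me1 list (0.226%, interval 0.0399 to 1.27%), where 0.761% of all merged regions were. In the H3K4me2 list were 5 of 442 (1.13%, interval 0.484 to 2.62%), where 1.87% of all merged regions were. With merged regions of the same widths, 5.61 and 17.4 regions would be had. No region at these genes was in both lists (0 of 442, which allows up to 0.679%), where 172 of all 358833 merged regions were (0.0479%), so 0.212 regions would be had among 442 and the count of 0 says nothing particular to these genes. Because the 2 regions over a TSS were wide, the H3K4me2-decreased regions made up 34460 of the 773800 bp (4.45%), and the H3K4me1-decreased region 1420 bp (0.184%).

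By position, 43 regions at these genes held a TSS, and 2 of them (4.65%) were H3K4me2-decreased, where 24.0% of the TSS-holding regions of coding genes were. Of 92 regions within 5 kb of a TSS without holding it, 1 was (1.09%), with 1.6% for coding genes. Of 69 regions beyond 5 kb that touched an exon, none was (which allows up to 4.35%), with 1.05% for coding genes. Of 238 intronic regions beyond 5 kb, 2 were (0.84%), a share close to the 0.704% of coding genes. The gap to coding genes was thus widest in regions that held a TSS, and the intronic regions showed none for H3K4me2.

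**Figure D2:**
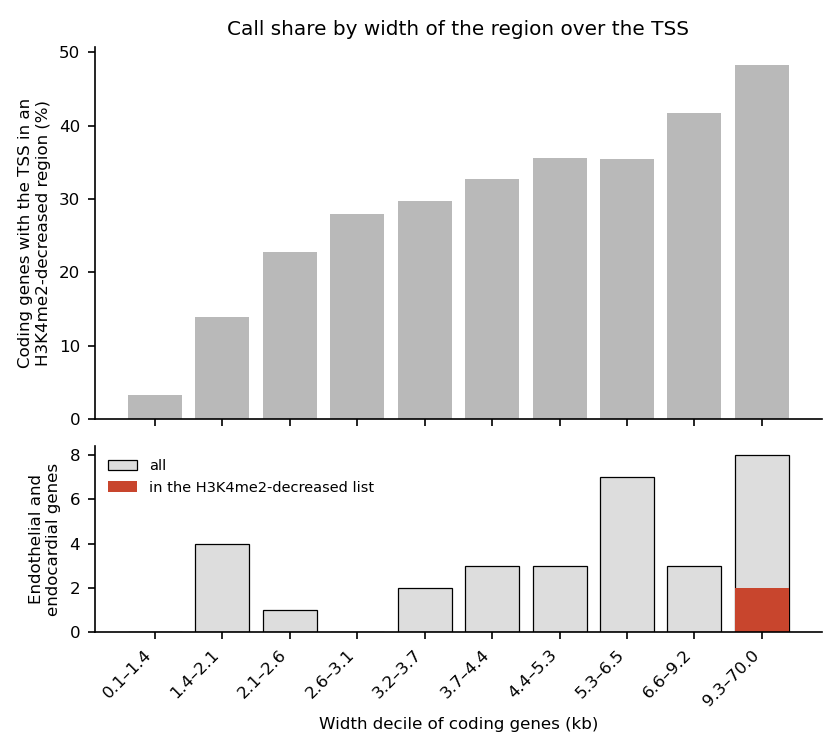
Top, share (%) of coding genes with a TSS in an H3K4me2-decreased region, in 10 groups ordered by the width of the region over the TSS (ranges in kb on the x axis). Bottom, number of the 31 endothelial and endocardial genes in each group, with those called in red. The coding share climbs from 3.32% in the narrowest group to 48.3% in the widest, while both called genes are among the 8 in the widest group and the 23 genes in the other groups hold none.

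Both genes with a decreased region over the TSS encode transcription factors. They are 2 of the 10 transcription factor genes, where 3.91 would be had at the same width. The TSS regions of these 10 genes had a median width of 8630 bp, against 5720 bp over the 31 genes. With so few genes this count is not a result about the role. *Fli1*, an ETS factor of endothelial and blood progenitor cells, has 1 annotated TSS, and the H3K4me2-decreased region over it was 9320 bp wide (chr9:32345986-32355305), from 6.33 kb before the TSS to 2.99 kb after it, over exonic UTR and coding sequence. The other 35 of its 36 regions, spread over the body of the gene, were in neither list. *Tal1*, a basic helix-loop-helix factor needed for blood and for endocardium, had the widest TSS region of the 32 genes, 21060 bp (chr4:114718786-114739845), which held all 4 of its TSS and reached from 10.2 kb before the TSS to 10.8 kb after it. No TSS of another coding gene lay inside it, and its other 2 regions were in neither list.

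The 250 bases before the TSS are shown for *Tal1*, since this promoter lies inside the widest H3K4me2-decreased region at the 32 genes. The sequence is from build mm9, chr4:114728781-114729030, on the plus strand, which is that of the gene. Capitals mark its single match, on either strand, to the GATA motif AGATAA, and it held no match to the ETS core AGGAAG, the SOX motif AACAAT or the FOX:ETS core AACAGGAA.
Tal1: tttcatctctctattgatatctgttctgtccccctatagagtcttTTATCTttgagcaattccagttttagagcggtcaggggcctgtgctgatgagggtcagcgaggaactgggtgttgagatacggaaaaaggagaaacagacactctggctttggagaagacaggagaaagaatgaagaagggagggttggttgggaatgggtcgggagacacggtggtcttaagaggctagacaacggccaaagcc

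Across the 31 genes, 19 (61.3%) had an ETS core within 250 bases before to 50 bases after the TSS, against 33.1% of the 15752 coding promoters of the same length. The FOX:ETS core, which shares letters with the ETS core, was found in 3 genes (9.68% against 2.09%). The SOX motif was in 5 genes (16.1% against 6.27%) and the GATA motif in 4 (12.9% against 7.34%). The KLF motif CCACCC was in 13 (41.9% against 37.8%), the NFAT motif GGAAAA, which can overlap an ETS core, in 6 (19.4% against 21.2%), and TATAAA in 3 (9.68% against 7.68%). All were counted on both strands, and a match is only a run of letters. Of the 19 genes with an ETS core, 18 had no H3K4me2-decreased region over the TSS. Only 2 of all 31 genes (6.45%) had one, so this count says nothing about the motif. Promoter composition differed from that of coding genes as well: the observed-to-expected CpG ratio within 500 bases of the TSS had a median of 0.414 (quartiles 0.234 and 0.752) against 0.696, and GC content a median of 56.6% against 58.4%. With coding genes of the same CpG ratio, 6.65 genes with a TSS in an H3K4me2-decreased region would be had, and 9.21 when both width and CpG ratio were held, where 2 were found.

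The other 8 transcription factors had no decreased region over the TSS. *Nfatc1*, which in the early heart marks the endocardium and is needed for its valves, had a TSS region of 15820 bp, from 4.04 kb before the TSS to 11.8 kb after it, and 29 regions summing to 78000 bp, all in neither list. *Gata2*, a zinc finger factor of endothelial and blood cells, had 14160 bp over its TSS, nearly all of it after the start (0.819 kb before, 13.3 kb after). *Ets1*, which lies next to *Fli1* on chromosome 9, had the largest summed width of the 32 genes (33 regions, 85320 bp) with 10540 bp over the TSS, and its nearest decreased region, at 88.5 kb, was the one over *Fli1*. These 3 regions and those of *Tal1* and *Fli1* were all in the widest group of coding TSS regions. In that group 2 of 8 genes described here were called, *Tal1* and *Fli1*, where the share of coding genes was 48.3%. The SOXF factors, which act in arterial and lymphatic endothelium, differed in width, with 7940 bp at *Sox7*, 2500 bp at *Sox18* and 1760 bp at *Sox17*. *Klf2*, a factor induced by blood flow, had 5140 bp.

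*Erg*, an ETS factor that maintains endothelial identity, had 53 regions summing to 67660 bp, and 5400 bp over its TSS, which was in neither list. A single region of 1300 bp was H3K4me2-decreased (chr16:95585846-95587145). It lay in the last intron, 11 of 11, of the coding transcript with the most exons that contains it, 45473 bp from the nearest annotated TSS.

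Among the 9 receptor genes, 1 had a decreased region, for H3K4me2, where 3.74 would be had at the same summed width. Over the TSS 0 of the 8 with a TSS region had one (which allows up to 37.5%), where 2.73 would be had. With so few genes these counts are not a result about the role. The decreased region, at *Flt1*, was only 60 bp wide (chr5:148423726-148423785), H3K4me2-decreased, in intron 15 of 29 and 3033 bp from the TSS of a short non-coding transcript of the gene. Its sequence is printed on the plus strand because the whole region is so short, and it holds none of the 4 motifs named above for *Tal1*.
Flt1: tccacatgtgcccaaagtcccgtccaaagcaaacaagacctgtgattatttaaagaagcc

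The other 52 regions of *Flt1* and all 12 of *Kdr*, the main signalling receptor for VEGF, were in neither list. *Kdr* had the widest TSS region of the receptors, 11440 bp, from 2.94 kb before the TSS to 8.5 kb after it. *Flt4*, the receptor of lymphatic growth factors, had 14 regions but only 1700 bp over the TSS. The angiopoietin receptor *Tek* had 5760 bp over the TSS and 23 regions, and its partner *Tie1* 5720 bp and 6 regions. *Eng*, a co-receptor for TGF-beta and BMP ligands, had 7920 bp over the TSS and 12 regions. *Aplnr*, the apelin receptor, had 3360 bp over the TSS, and *Lyve1*, a hyaluronan receptor of lymphatic vessels, 4000 bp. The ligand genes had no decreased region: *Angpt2*, which encodes a ligand of *Tek*, had 23 regions with 6000 bp over the TSS, and *Apln*, which encodes the ligand of *Aplnr*, had its single 1680 bp region over the TSS. At the same summed width only 0.347 ligand genes would be had for H3K4me1 and 0.588 for H3K4me2.

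Of the 8 genes for junction and surface proteins, 1 had an H3K4me1-decreased region and none an H3K4me2-decreased region (which allows up to 37.5%). At the same summed width 0.774 and 3.14 would be had, and the coding shares were 7.08% and 28.7%. With 8 genes these counts are not a result about the role. *Pecam1*, which encodes the adhesion protein CD31, had 25 regions summing to 42220 bp. The H3K4me1-decreased one was 1420 bp wide (chr11:106516506-106517925), in the last intron, 15 of 15, near the 3′ end of the gene and 34736 bp from the nearest annotated TSS. Its 3880 bp TSS region was in neither list. *Cdh5*, encoding VE-cadherin of the endothelial adherens junction, had 10240 bp over its TSS, almost wholly after it (0.539 kb before, 9.7 kb after), and 11 regions in neither list. *Cldn5*, of the tight junction, had 4960 bp and *Esam*, an adhesion molecule of the same junctions, 5500 bp. *Plvap*, which forms the diaphragms of endothelial pores, had 6420 bp, *Icam2* 3980 bp and *Ecscr* 3220 bp. *Emcn*, a sialomucin known from endocardium and capillaries, had the narrowest TSS region of the 31 genes, 1580 bp, although 17 regions lay in its window.

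Of the 3 genes for secreted and matrix proteins, *Vwf*, which encodes von Willebrand factor, had 1 decreased region. It was H3K4me2-decreased and 2720 bp wide (chr6:125522306-125525025), in intron 6 of 51 and 6037 bp from the nearest annotated TSS. The other 31 of its 32 regions were in neither list, among them the 6980 bp region that was the widest over a TSS. That region lay inside the gene, 9.26 to 16.2 kb after the TSS used for the motif and CpG counts. The region over the latter TSS was 1180 bp wide. *Egfl7*, which encodes a protein secreted by endothelium, had 10420 bp over a TSS, with 14 of 19 annotated TSS in a region, and *Mmrn2*, of the endothelial matrix, 6420 bp. Neither had a decreased region. For H3K4me2 1.3 of these 3 genes would be had at the same summed width.

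**Figure D3:**
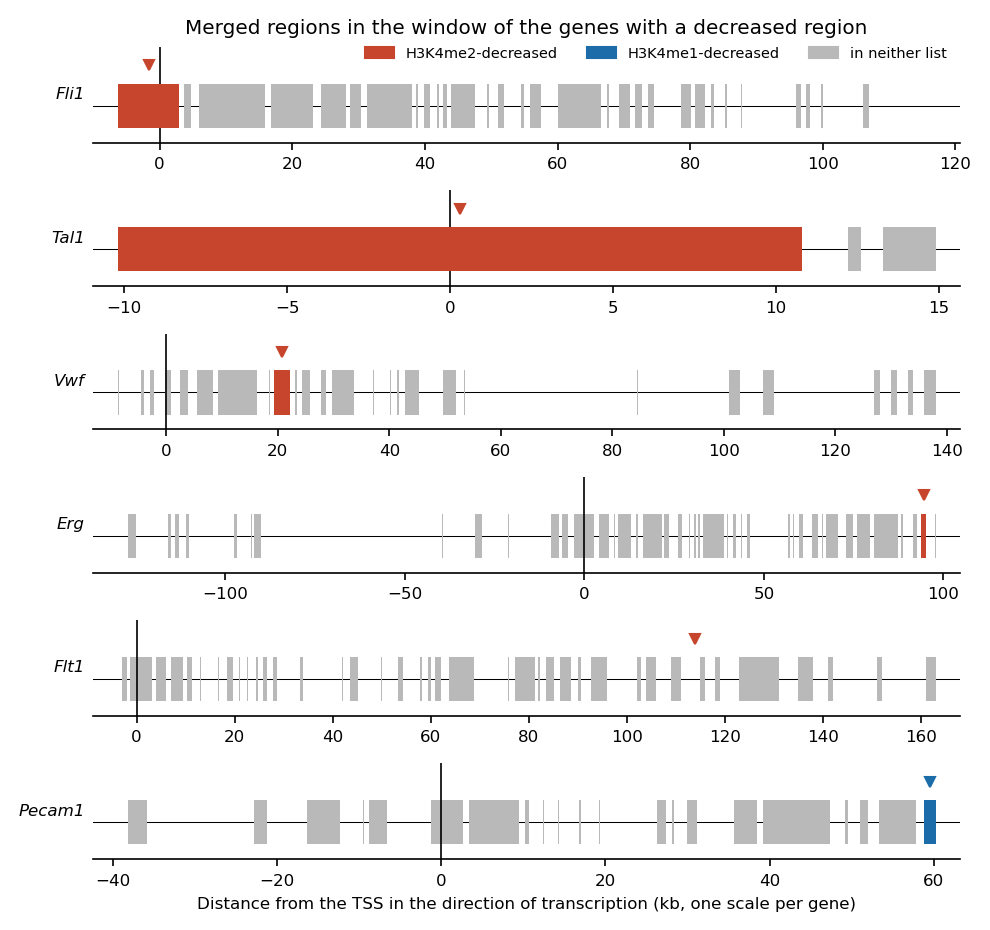
Merged regions in the window of the 6 genes with a decreased region, by distance in kb from the TSS in the direction of transcription (vertical line), with 1 scale per gene and a triangle above each decreased region. At *Fli1* and *Tal1* the decreased region covers the TSS, while at *Vwf*, *Erg*, *Flt1* and *Pecam1* it is a single region inside the gene, from 60 to 2720 bp wide, among many in neither list.

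Genes beside these were called at the usual rate. Within 100 kb of a TSS of the 32 genes lay the TSS of 100 other coding genes with a region over the TSS. Of those, 28 (28.0%, interval 20.1 to 37.5%) had it in an H3K4me2-decreased region, close to the 29.2% of all coding genes and to the 29.8 genes had at the same width. In all, 15 of the 32 genes had such a neighbour, and 14 of the 15 had no H3K4me2-decreased region over their own TSS. These 14 include *Robo4*, which has no region over a TSS and could not be called. Only 2 of 31 genes were called over the TSS at all, so the count says nothing particular to genes with such a neighbour. At *Esam* 4 of 6 neighbours were called, at *Cldn5* 3 of 4 and at *Pecam1* 3 of 6. The distance from a TSS of the 32 genes to the nearest H3K4me2-decreased region had a median of 94.4 kb, compared with 47.6 kb over coding genes (quartiles 3.96 and 148 kb). For H3K4me1 the medians were 238 and 267 kb. The H3K4me1-decreased region nearest to *Eng* was 2120 bp wide and lay 8.17 kb from a TSS, outside the window.

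In a wider list of 68 other genes of endothelial pathways, among them VEGF and angiopoietin ligands, further ETS and FOX factors and junction proteins, 19 (27.9%, interval 18.7 to 39.6%) had an H3K4me2-decreased region and 5 (7.35%, interval 3.18 to 16.1%) an H3K4me1-decreased one, shares close to those of all coding genes. At the same summed width 28.0 and 9.97 would be had. Their TSS lay in an H3K4me2-decreased region in 14 of 68 genes (20.6%, interval 12.7 to 31.6%), with 24.1 at the same width. The widest were at *Unc5b*, a netrin receptor of vessels (42060 bp), *Nrp1*, a VEGF co-receptor (23200 bp), *Foxc1*, a forkhead factor (21540 bp), and *Ldb1*, a cofactor that binds *Tal1* complexes (12320 bp). Several of these genes are also used outside the endothelium. Their interval for the TSS overlaps that of the 32 genes, and the difference between both lists was not tested.

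Of 36 genes of heart muscle cells, in which the Cre is active, 16 (44.4%, interval 29.5 to 60.4%) had an H3K4me1-decreased region and 16 an H3K4me2-decreased one, with 7.93 and 16.9 had at the same summed width. The H3K4me1 interval lies above that of the 32 endothelial and endocardial genes, and the H3K4me2 intervals overlap. These shares are not matched for width: for H3K4me1 7.93 of 36 would be had here and 4.75 of the 32 genes. The genes of a list are not replicates, and the difference between both lists was not tested. The TSS of 11 of 36 (30.6%, interval 18.0 to 46.9%) lay in an H3K4me2-decreased region, with 16.3 had at the same width. Counts over the TSS below those of like width were thus not particular to the 32 genes: they were 3 where 6.22 would be had for the cushion genes below, 3 where 5.35 would be had for the erythroid genes and 0 where 3.66 would be had for the epicardial genes. Of 15 genes of cushion mesenchyme, which arises from endocardium, 4 had an H3K4me2-decreased region and 1 an H3K4me1-decreased one. At the same summed width 5.81 and 1.45 would be had. Of 12 epicardial genes none was called for either mark (which allows up to 25%), and 3.87 would be had for H3K4me2 and 0.765 for H3K4me1. Of 15 erythroid genes 6 were called for H3K4me2, and of 14 myeloid genes 1, with no H3K4me1 call in either (which allows up to 20% and 21.4%). At the same summed width 5.54 and 2.69 would be had for H3K4me2, and the share over coding genes was 28.7%. For H3K4me1 1.26 and 0.464 would be had, with a coding share of 7.08%, so the lack of H3K4me1 calls says little. The erythroid count includes globin genes of chromosome 11 that each held an H3K4me2-decreased region of the same width, 23160 bp. This is probably the same region counted for each, so their calls are not separate. Markers of these other cells had regions in the same hearts, but so did 89.5% of all coding genes. Only 5 of 14 myeloid genes had a TSS in a region, where 70.4% of coding genes did. The part of these other cells in the calls at the 32 genes was not tested.

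**Figure D4:**
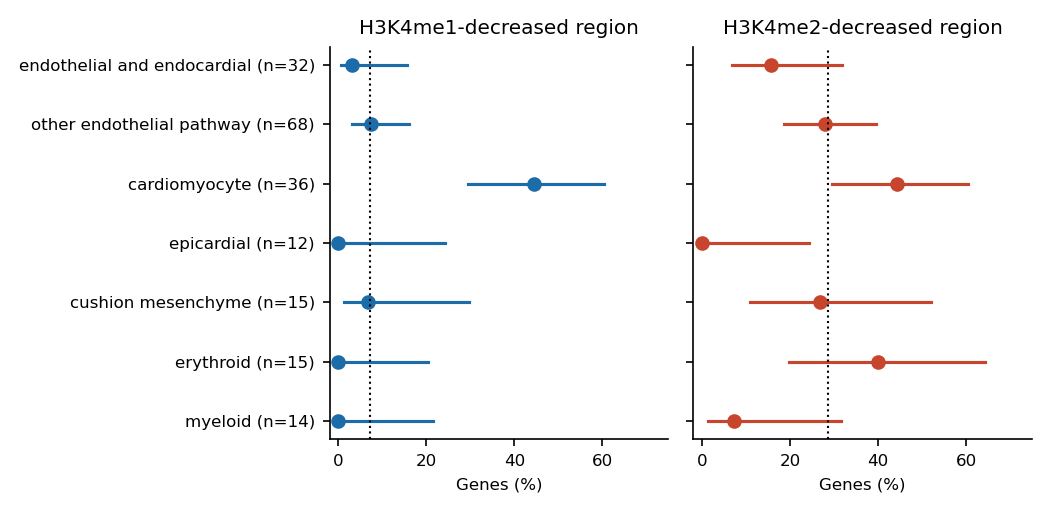
Share (%) of genes with an H3K4me1-decreased region (left) or H3K4me2-decreased region (right) in the body or within 5 kb of a TSS, as points with 95% Wilson intervals for each gene list (n in the labels), and dotted lines at the coding shares of 7.08% and 28.7%. For H3K4me1 the cardiomyocyte genes stand at 44.4% and the endothelial and endocardial genes at 3.12%, and for H3K4me2 at 44.4% and 15.6%.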

How the data were processed

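H3K4me1, H3K4me2 and H3K4me3 ChIP-Seq and input libraries of control and mutant hearts were made by the authors, whose processing notes name CASAVA 1.8.2, FastQC, Bowtie, Bowtie2 and SAMtools. The deposited values are region coordinates on mm9, as 1 merged list and 2 lists of decreased regions. The peak caller and the test behind the decreased lists are not given in the sources used here. The 3 KMT2D ChIP-Exo libraries, of cardiomyocytes, were not analysed here.

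Genes, transcripts and sequence came from GENCODE vM1 and NCBIM37 (the assembly of mm9), and all coordinates are 1-based. A region belonged to a gene when it overlapped by 1 bp or more the gene body or 5 kb around any TSS, and was decreased when its coordinates were in a decreased list. The TSS region was the widest region holding a TSS. Values had "at the same width" are sums over the genes of the coding share in each gene's width group (10 groups), and for regions sums over 7 width classes of the share of all merged regions. The procedure was tested on simulated data. Python 3.11.15, numpy 2.4.6, pandas 2.3.3 and scipy 1.17.1 were used.

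The 32 genes, the other lists and the motifs were chosen with earlier results of these data known. All 32 are named, each with all its decreased regions. From other lists at most 4 genes were named, those with the widest decreased TSS regions. Shares of 0 in the main counts are given with the limit that 3 counts allow. Some promoter sequences are not reported here.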

Additional observations from a re-analysis of the deposited data

How the results depend on the processing

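No paired analysis was possible because the lists hold no values per pool, and for the same reason no pool could be left out. Across 11 results and 64 alternatives (window, region width, transcripts, overlap, nearest gene, width groups), 58 kept the value and 6 did not, where counts were held to within 1.5 times, shares of regions to their counting interval and the median width to the quartiles. With 10 kb around a TSS, 2 genes had an H3K4me1-decreased region, the added one being *Eng*. Without the gene body, 0 genes and 0% of regions were H3K4me1-decreased and 3 genes H3K4me2-decreased, because *Pecam1*, *Erg* and *Vwf* were called inside the gene. Weighted by covered bp, 4.45% was H3K4me2-decreased. Grouping by CpG ratio in place of width, chosen after seeing the data, gave 6.65 genes in place of 11.1 for a TSS in an H3K4me2-decreased region, and width with CpG ratio 9.21. The count of genes with a TSS in an H3K4me2-decreased region was 2 under all 4 alternatives run on it. Most of these could not change it, so the agreement says little. The overlap setting could alter no count, because every decreased region was identical to a merged region. The width limit and the nearest-gene rule could not remove the 2 called regions, which are wide and hold the TSS. Depth is unknown, and a list with a threshold gives no size of change.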
